A study of Homo sapiens with 6 samples.

Results

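The small RNA silencing machinery was described here by 10 genes chosen by symbol, out of 59074 genes in the deposited table: the Argonautes AGO1, AGO2, AGO3 and AGO4, the nucleases DROSHA and DICER1, the Dicer partner TARBP2, and the scaffold genes TNRC6A, TNRC6B and TNRC6C. All 10 were found, and all 10 passed the filter on low values (a mean of at least 1 CPM, which left 14294 genes for testing). RNA sequencing covered LN-229 (LNT229 in the sample titles), T98G and U251, 3 established human glioblastoma cell lines, at 72 h after lipid transfection with siPOOLs, which are pools of many siRNAs. Non-target siPOOLs gave the control (siControl) and HOTAIRM1-specific siPOOLs the knock-down (siHOTAIRM1), each with 1 library per cell line, so that the 3 cell lines were the replicates. Every library came from cells that had received siRNA and transfection reagent. A response of these genes to siRNA as such cannot be told apart from their resting level. A difference in response between the non-target and HOTAIRM1-specific siPOOLs cannot be told apart from an effect of the knock-down.

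Drosha is the nuclear RNase III that cuts primary miRNA transcripts into hairpins, and Dicer is the cytoplasmic RNase III that cuts the hairpins, with TRBP (the product of TARBP2) as a double-stranded RNA-binding partner. Argonaute proteins hold the resulting short strand, or an siRNA that was transfected, and use it to find complementary RNA. AGO2 is the member known to slice a fully paired target, as siRNA knock-down requires, whereas TNRC6 (GW182) proteins bind Argonautes and recruit deadenylases to miRNA targets.

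HOTAIRM1, the targeted lncRNA, was lower in the siHOTAIRM1 library of all 3 cell lines, at 1.99 and 0.952 CPM (reads per gene, scaled by sequencing depth) in LN-229, 3.49 and 2.15 in T98G, and 1.27 and 0.623 in U251 (siControl first). Its log2 change was −0.54 ± 0.12 (SE, limma adjusted p = 0.0146), a difference of log2(CPM + 1) as for all fitted changes here, which understates the change of low genes. It was negative under all 10 alternatives to this fit and past the threshold under 2 of them. Depth ran from 52.3 to 104 M reads per library, and the listed genes held 42.9 to 67.2% of the CPM scale. In this deep data each silencing gene had 468 to 12344 reads per library, and the 95% Wilson interval of a level (counting error only) reached 1.76 to 9.07% of it to either side. Of the glioma and mesenchymal markers, VIM, CD44 and EGFR were at 44.4 CPM or more in every library, and NES was at 329 to 507 CPM in LN-229 and U251 but under 1 CPM in T98G. The other 4 were low or line-dependent: GFAP was at 0.0435 to 0.317 CPM in LN-229 and T98G and 42.5 and 20.7 CPM in U251, and SOX2 was at no more than 1 read in T98G, 8.15 and 8.6 CPM in LN-229, and 91.4 and 117 CPM in U251. OLIG2 was at 1.69 CPM or less in every library, and S100B was listed at 0 reads in T98G. MGMT was seen at 7.44 and 5.86 CPM in T98G and at no more than 1 read elsewhere, as known of these lines. The summed level of 4 leukocyte markers was 0.581 to 8.09 CPM and of 3 endothelial markers 0.407 to 3.08 CPM. Among markers of other cell types, CD3E, CDH1 and RBFOX3 were under 3 reads in every library, KRT18 reached 93.9 CPM, and SNAP25 and SYT1 were also detected.

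No silencing gene passed the test for knock-down against control. Of the 10 genes, 0 had an adjusted p under 0.05 in limma with the cell line as block, beside 2.0% of all tested genes (59 or 0.413% higher and 227 or 1.59% lower). Leaving out T98G left 0 genes of the whole table called and leaving out U251 left 149. At an unadjusted p under 0.05 there were 2, DICER1 and AGO2, both with higher values after knock-down, beside 18.3% of all tested genes. The median log2 change was 0.05 for the silencing genes and −0.07 for all tested genes. In bulk RNA of a culture, fewer cells expressing a gene and less of its RNA per cell cannot be told apart.

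**Figure D1:**
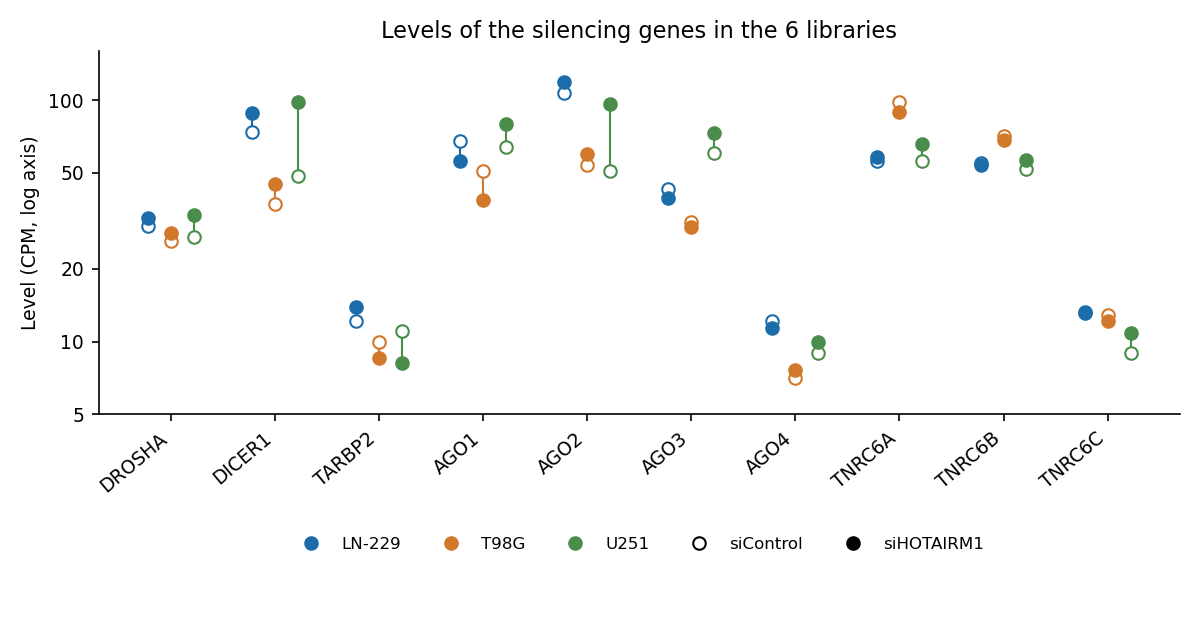
Level of each silencing gene in CPM (log axis) in the 6 libraries, with the cell lines in 3 colours, open circles for siControl and filled circles for siHOTAIRM1. The pairs lie close together for most genes, while DICER1 lies at 48.4 and 97.9 CPM and AGO2 at 50.7 and 96.5 CPM in U251.

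Within the cell lines, DICER1, AGO2 and DROSHA were higher after knock-down in all 3, which makes 3 of 10 genes beside 11.4% of all tested genes. The same direction was seen for these 3 genes under each of the 3 other scalings of the libraries. None of the 10 was lower in all 3, beside 28.1% of all tested genes. U251 had 9 of 10 genes with a higher value, LN-229 had 5 and T98G had 4. The libraries themselves shifted: of all tested genes, LN-229 had 53.3% with a higher value, T98G 20.3% and U251 45.7%, with median log2 changes of 0.01, −0.19 and −0.03. Relative to the median of their cell line, 5, 8 and 9 of the silencing genes were higher.

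**Figure D2:**
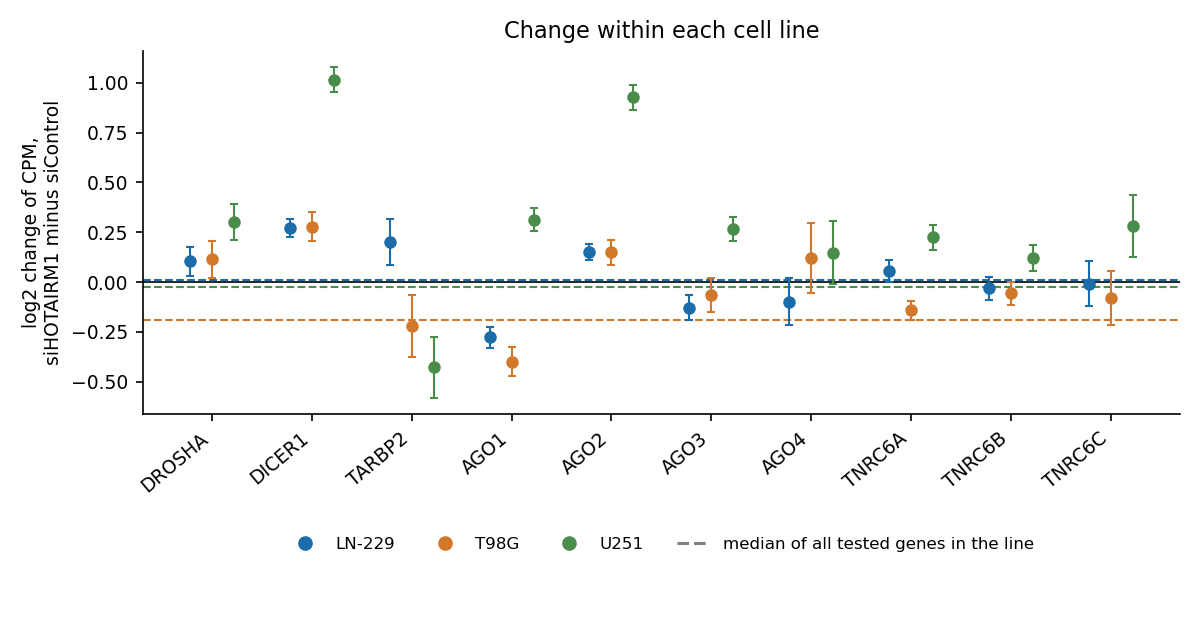
log2 change of CPM (siHOTAIRM1 minus siControl) of each silencing gene in each cell line, with bars for the 95% counting interval of the 2 libraries and dashed lines for the median change, of log2(CPM + 1), of all tested genes in that line. DICER1 and AGO2 in U251 stand near 1, whereas the other changes lie between −0.43 and 0.31.

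DROSHA (ENSG00000113360, chr5:31400494-31532196 of hg38, minus strand) had the narrowest spread over the 6 libraries relative to its level. Its level was 30.2 CPM in siControl and 32.4 CPM in siHOTAIRM1 in LN-229, 26.1 and 28.2 in T98G, and 27.1 and 33.4 in U251. The groups overlapped, with 27.8 ± 2.14 CPM in siControl and 31.4 ± 2.78 CPM in siHOTAIRM1 (SD, n = 3). The log2 change was 0.17 ± 0.14 (SE, limma adjusted p = 0.545).

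DICER1 (ENSG00000100697, chr14:95086228-95158010, minus strand) was at 73.5 CPM in siControl and 88.7 CPM in siHOTAIRM1 in LN-229. It was at 37.0 and 44.9 CPM in T98G, and at 48.4 and 97.9 CPM in U251. All 3 cell lines thus had the higher value after knock-down, by 20.8%, 21.3% and 102%, but the lines differed so much in level that the groups overlapped (53.0 ± 18.6 and 77.2 ± 28.3 CPM, SD, n = 3). The log2 change of 0.51 ± 0.16 (SE) was the largest among the silencing genes and had a limma adjusted p of 0.0713. With a pseudocount of 0.1 CPM in place of 1 it was 0.52, with an adjusted p of 0.0235, the 1 setting in which any silencing gene passed. Its adjusted p ran from 0.0235 to 0.999998 over the 10 alternatives. Without U251 the change fell to 0.27 (adjusted p = 0.859), and without LN-229 or T98G it was 0.64 and 0.63. A change of at least 0.27 in every cell line, the smallest that DICER1 showed, was seen in 93 genes (0.651% of those tested). DICER1-AS1, the gene named as antisense to DICER1, was at 0.172 to 1.24 CPM. The library kit does not mark strand, so reads of DICER1 and of its antisense partner cannot be told apart where they overlap.

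TARBP2 (ENSG00000139546, chr12:53500921-53506431, plus strand) differed in the direction of its values between the cell lines. It was at 12.1 and 13.9 CPM in LN-229 (siControl first), at 9.98 and 8.55 CPM in T98G, and at 11.02 and 8.19 CPM in U251, with overlapping groups. The log2 change was −0.13 ± 0.15 (SE, limma adjusted p = 0.666), and it was −0.29 without LN-229 and −0.0071 without U251. The ratio of DICER1 to TARBP2 CPM, which no library scaling can alter, was 6.06 in siControl and 6.37 in siHOTAIRM1 for LN-229, 3.71 and 5.25 for T98G, and 4.39 and 11.9 for U251. Its log2 change was 0.07 (counting interval −0.05 to 0.19) in LN-229, 0.50 (0.33 to 0.67) in T98G and 1.44 (1.28 to 1.61) in U251. The interval for LN-229 thus includes no change. A ratio does not remove the trend of change with transcript length described below. Genes similar in length to DICER1 and TARBP2 had median changes of −0.07 and −0.27 in T98G, and 0.08 and −0.20 in U251. As for all ratios here, this pair was chosen after its values were seen and was not tested.

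Among the Argonautes, AGO2 and AGO1 had changes of opposite sign in 2 of the 3 cell lines, LN-229 and T98G, under each scaling. AGO2 (ENSG00000123908, chr8:140520156-140635633, minus strand) was at 106.9 and 118.8 CPM in LN-229, at 53.9 and 59.8 CPM in T98G, and at 50.7 and 96.5 CPM in U251. The siHOTAIRM1 value was higher by 90.3% in U251, 10.9% in T98G and 11.1% in LN-229, and the groups overlapped (70.5 ± 31.6 and 91.7 ± 29.8 CPM, SD, n = 3). The log2 change was 0.40 ± 0.16 (SE, limma adjusted p = 0.162), and 0.15 (adjusted p = 0.925) without U251, with adjusted p-values from 0.101 to 0.999998 over the 10 alternatives. AGO1 (ENSG00000092847, chr1:35869808-35930532, plus strand) was at 67.6 and 55.8 CPM in LN-229, at 50.7 and 38.5 CPM in T98G, and at 64.0 and 79.6 CPM in U251. Its values were thus lower after knock-down in LN-229 and T98G and higher in U251. The log2 change was −0.12 ± 0.15 (SE, limma adjusted p = 0.721), and its sign depended on the scaling (0.03 with the listed genes scaled to a common total).

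AGO3 and AGO4 lie beside AGO1 on the same strand. AGO3 (ENSG00000126070, chr1:35930718-36072500) starts 185 bases after the end of AGO1, and AGO4 (ENSG00000134698, chr1:35808016-35857890) ends 11917 bases before the start of AGO1. AGO3 was at 42.9 and 39.3 CPM in LN-229, at 31.4 and 29.96 CPM in T98G, and at 60.6 and 72.9 CPM in U251. AGO4, the Argonaute with the fewest reads, was at 12.2 and 11.4 CPM, at 7.05 and 7.66 CPM, and at 9.01 and 9.99 CPM in the same order. The groups overlapped for both genes, and the log2 changes were 0.02 ± 0.14 for AGO3 and 0.05 ± 0.14 for AGO4 (SE, limma adjusted p = 0.954 and 0.893). The 3 genes of the cluster thus differed in the direction of the values within LN-229 and T98G from AGO2, which lies on another chromosome, with the exception of AGO4 in T98G. Under the 3 other scalings AGO3 was also higher after knock-down in T98G.

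The composition of the Argonaute pool does not depend on library scaling. Per kb of the longest transcript, AGO2 made up 45.4% of the summed AGO1 to AGO4 level in LN-229 in siControl and 51.6% in siHOTAIRM1, 37.1 and 43.2% in T98G, and 27.9 and 37.8% in U251. AGO1 made up 30.6 and 25.8%, 37.2 and 29.6%, and 37.5 and 33.2% in the same order. The ratio of AGO2 to AGO1 CPM was 1.58 and 2.13 for LN-229, 1.06 and 1.55 for T98G, and 0.79 and 1.21 for U251 (siControl first). On the log2 scale these are changes of 0.43 (95% counting interval 0.36 to 0.49), 0.55 (0.45 to 0.64) and 0.61 (0.53 to 0.70). The ratio was higher after knock-down in 3 of 3 cell lines, and the siControl range reached into the siHOTAIRM1 range. With coding length in place of transcript length, the share of AGO2 was still higher by 6.16, 6.30 and 9.82 percentage points.

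**Figure D3:**
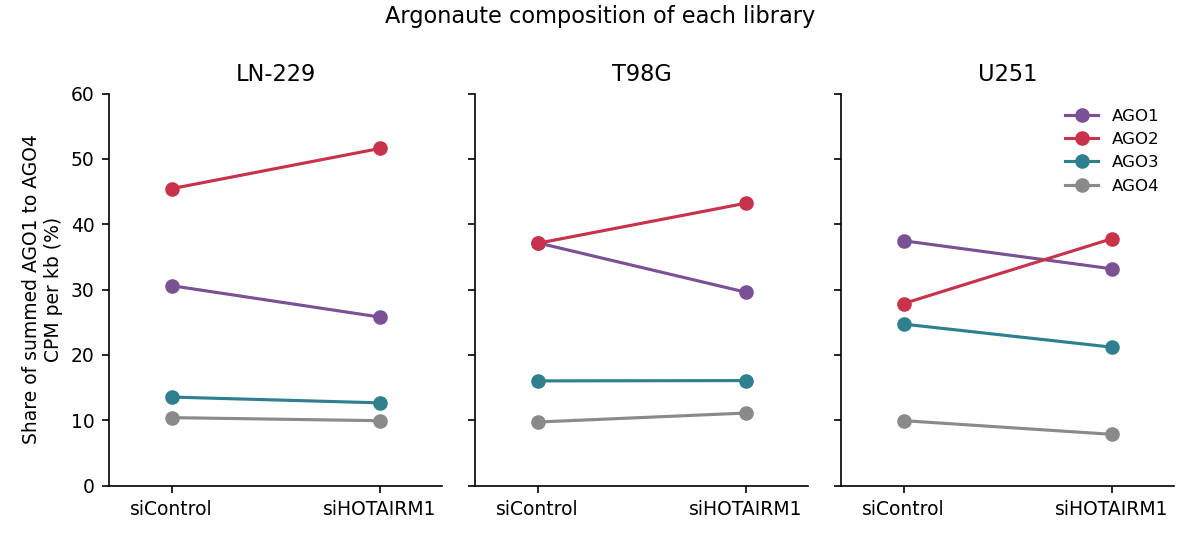
Share of AGO1, AGO2, AGO3 and AGO4 in their summed CPM per kb of longest transcript (in %), for siControl and siHOTAIRM1 in each cell line, with 1 library per point. AGO2 has the larger share and AGO1 the smaller share in siHOTAIRM1 than in siControl in each panel. The lines of AGO1 and AGO2 cross in U251, and in T98G they part from nearly equal siControl shares (37.2 and 37.1%), with AGO1 barely above.

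On average over the cell lines, the TNRC6 genes differed little between control and knock-down. TNRC6A (ENSG00000090905, chr16:24610209-24827632, plus strand) was at 55.8 and 57.9 CPM in LN-229, at 98.6 and 89.3 CPM in T98G, and at 56.1 and 65.5 CPM in U251. TNRC6B (ENSG00000100354, chr22:40044817-40335808, plus strand) was at 55.0 and 53.8 CPM, 71.2 and 68.4 CPM, and 51.8 and 56.3 CPM. TNRC6C (ENSG00000078687, chr17:77958703-78108822, plus strand) was at 13.2 and 13.1 CPM, 12.9 and 12.2 CPM, and 8.96 and 10.9 CPM. All 3 genes had their higher value after knock-down in U251 and their lower one in T98G, and the groups overlapped. Under the 3 other scalings the T98G values were also higher after knock-down. The log2 changes were 0.04, 0.01 and 0.06, with limma adjusted p-values of 0.910, 0.980 and 0.871. Within the family the shares per kb of longest transcript moved little, with the largest difference in TNRC6B of U251 (−1.49 percentage points) and TNRC6A at 60.6 to 69.4% of the sum. The lead of TNRC6A depended on the length used: per kb of coding length it held 43.6 to 52.5%, and in LN-229 siControl TNRC6B (46.0%) was above it (43.6%).

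The U251 libraries were the least alike in make-up. The siControl library had 52.3 M reads with 67.2% of the scale on listed genes, and the siHOTAIRM1 library 101 M reads with 55.9%. With the listed genes of each library scaled to a common total, the U251 changes were 1.27 for DICER1 and 1.18 for AGO2, against 1.001 and 0.91 as deposited. Of all tested genes, 69 had a change at least as high as DICER1 in U251 and 99 at least as high as AGO2. Under the same scaling the T98G changes were 0.50 and 0.37, against 0.27 and 0.15 as deposited, and 9 of the 10 silencing genes were higher in T98G. In LN-229 the count was 5 of 10 under each of the 4 scalings.

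Most silencing genes have long transcripts, and length went along with the changes in T98G and U251. The longest transcript ran from 1510 bases (TARBP2) to 19660 bases (AGO3). Across 13145 genes with a known length, Spearman's rho of the change with transcript length was 0.32 for U251, 0.25 for T98G and −0.03 for LN-229. These are descriptions across genes of 1 pair of libraries each, and genes are not independent replicates. The median change in U251 was −0.44 in the shortest of 20 length bins and 0.08 in the longest, to which 6 of the 10 genes belonged (AGO1, AGO2, AGO3, DICER1, TNRC6B and TNRC6C). Above the median of its bin, DICER1 stood by 0.25, 0.34 and 0.92 and AGO2 by 0.13, 0.22 and 0.84 (LN-229, T98G, U251). With the length trend removed, the log2 change was 0.51 for DICER1 (limma adjusted p = 0.153) and 0.40 for AGO2 (0.206). TARBP2, in a bin of short genes, went from −0.13 to 0.02.

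**Figure D4:**
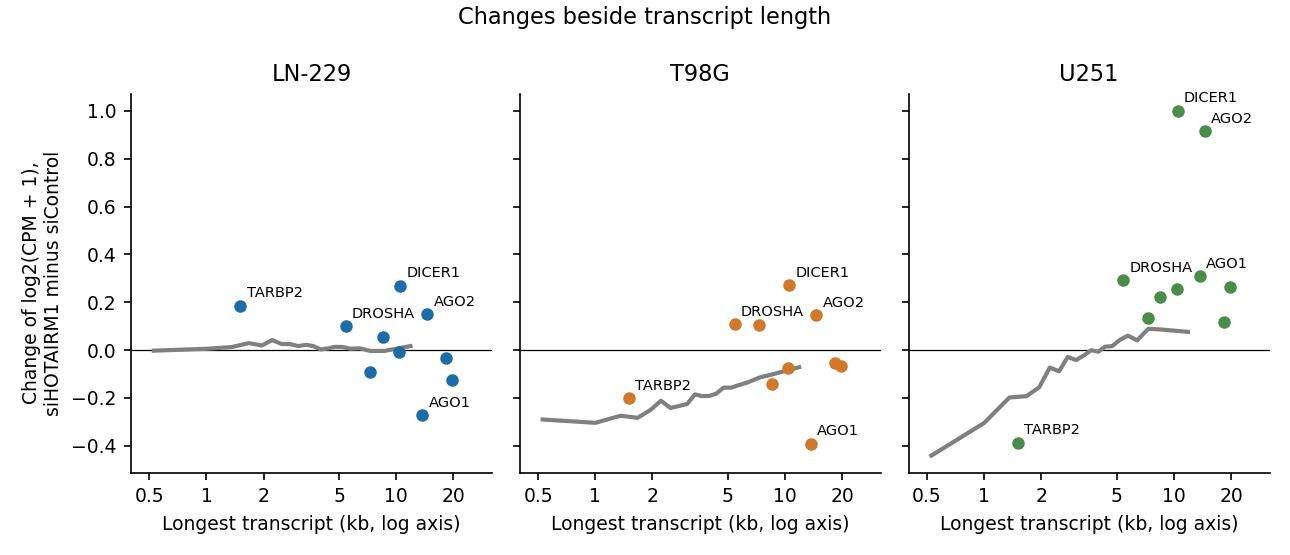
Change of log2(CPM + 1) after knock-down (vertical axis) against the length of the longest transcript in kb (log axis) for the 10 silencing genes (points) in each cell line, with the median of 20 length bins of all genes as a grey line. In U251 the line climbs from −0.44 to 0.08, and DICER1 and AGO2 lie well above its end.

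More silencing genes were called between cell lines than between knock-down and control. In these comparisons the 2 libraries of a cell line were fitted with siPOOL as a further term, and the spread was shared by all 6 libraries. T98G differed from LN-229 in 7 of 10 genes, beside 54.9% of all tested genes. Of these, TNRC6A was higher (24.1% of all tested genes were) and AGO1, AGO2, AGO3, AGO4, DICER1 and TARBP2 were lower (30.8% of all tested genes were). U251 differed from LN-229 in 3 genes, beside 60.6%, with AGO3 higher (36.7% of all) and AGO2 and TARBP2 lower (23.9% of all). U251 differed from T98G in 4 genes, beside 64.2%, with AGO1, AGO3 and DICER1 higher (41.0% of all) and TNRC6A lower (23.1% of all). For both comparisons of U251 the count of silencing genes called was under the share of all genes. The median difference of all tested genes was −0.08, 0.15 and 0.22 for these 3 comparisons.

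T98G had less DICER1 and AGO2 RNA than LN-229 and more TNRC6A RNA. The log2 difference of T98G from LN-229 was −0.97 ± 0.19 for DICER1 (SE, limma adjusted p = 5.14e-05), −0.98 ± 0.19 for AGO2 (6.13e-05), −0.62 ± 0.18 for AGO4 (0.0034) and 0.71 ± 0.18 for TNRC6A (0.00108). These 4 genes passed under all 6 alternatives to this fit, whereas AGO1 passed under 2, TARBP2 under 3 and AGO3 under 1. The difference of AGO2 between T98G and U251 was not past the threshold (limma adjusted p = 0.181), and the libraries of these lines overlapped.

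AGO3 was the silencing gene with the largest difference between U251 and T98G, by 1.09 ± 0.18 on the log2 scale (SE, limma adjusted p = 1.99e-06). TNRC6A was lower in U251 than in T98G (log2 difference −0.62 ± 0.18, limma adjusted p = 0.00309), and both genes passed under all 6 alternatives. DICER1 (0.74 ± 0.19, limma adjusted p = 0.000987) and AGO1 (0.68 ± 0.19, 0.00192) were also higher in U251 than in T98G. DICER1 and AGO1 kept that direction under all 6 alternatives, and each passed under 3. Both gaps depended on the siPOOL and were narrower in siControl. DICER1 was at 48.4 CPM in U251 and 37.0 in T98G in siControl, and at 97.9 and 44.9 in siHOTAIRM1. AGO1 was at 64.0 and 50.7 CPM in siControl, and at 79.6 and 38.5 in siHOTAIRM1. Against LN-229, AGO3 was higher in U251 by 0.68 ± 0.18 (limma adjusted p = 0.00119) and AGO2 was lower (log2 difference −0.68 ± 0.19, 0.00298). Both kept their direction under all 6 alternatives, and each passed under 5. The gap of AGO2 was wider in siControl (50.7 CPM in U251, 106.9 in LN-229) than in siHOTAIRM1 (96.5 and 118.8). With the listed genes scaled to a common total, the split of called silencing genes in this comparison went from 1 higher and 2 lower to 0 higher and 5 lower, and that of U251 against T98G from 3 higher and 1 lower to 1 higher and 3 lower. Both libraries of each line lay apart from those of the other lines for AGO3, AGO4 and TNRC6C, which makes 3 of 10 beside 49.0% of all tested genes.

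**Figure D5:**
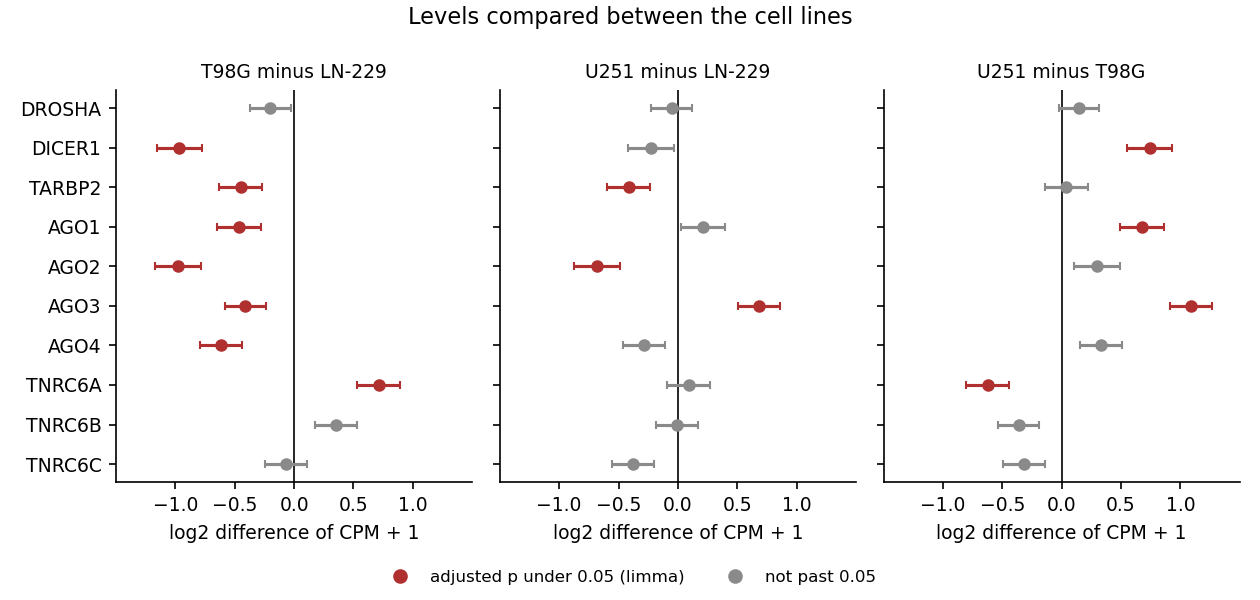
log2 difference of CPM + 1 between cell lines for the 10 silencing genes, with bars for the SE and red points for an adjusted p under 0.05 in limma. DICER1 and AGO2 of T98G lie near −1 against LN-229, and AGO3 is the furthest to the right in U251 against T98G at 1.09.

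Between genes, levels were compared per kb of the longest transcript. TNRC6A was the highest with 8.31 ± 2.203 CPM per kb (SD over the 6 libraries), followed by TARBP2 with 7.04 ± 1.45, DICER1 with 6.21 ± 2.404, AGO2 with 5.56 ± 2.04 and DROSHA with 5.46 ± 0.55. Lower levels were seen for AGO1 (4.33 ± 1.04), TNRC6B (3.25 ± 0.45), AGO3 (2.35 ± 0.87), AGO4 (1.31 ± 0.28) and TNRC6C (1.14 ± 0.16). The ranges of all neighbours in this order overlapped. Of the 9 neighbouring pairs, 2 kept their order in 6 of 6 libraries, DROSHA above AGO1 and AGO3 above AGO4. The order depends on the transcript taken: of the 45 pairs of genes, 35 kept it with the union of exons and 30 with coding length, under which AGO2 came first with 31.5 CPM per kb.

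For 2 of the genes the most similar profiles over the 6 libraries were looked up, by Pearson's r of log2(CPM + 1). For DICER1 these were ZNF212 (r = 0.996), ZNF577, ZNF75A, MED13L and BTBD7 (r = 0.989), and 41 genes in all had an r over 0.95. For AGO2 these were HKR1 (r = 0.993), MDM4, PRPF38B, LINC00869 and LGMNP1 (r = 0.988), and 58 genes had an r over 0.95. DICER1 and AGO2 correlated with each other with an r of 0.907, and AGO2 was 137th in the list of DICER1. The 6 libraries are 3 pairs from 3 cell lines, so these values are descriptions.

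The 3'UTRs of the silencing genes were read from hg38 for matches to miRNA seeds, since the silencing machinery is itself under miRNA control. The miRNAs were not measured in these libraries. The sequences of 3 miRNAs are shown because the study examined a site of miR-17-5p, because let-7 is a miRNA family known to be abundant in differentiated cells, and because miR-103 is known to target DICER1. From RefSeq, 5′ to 3′, with the seed (bases 2 to 8) in capitals, they read:
hsa-miR-17-5p: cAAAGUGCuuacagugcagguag
hsa-let-7a-5p: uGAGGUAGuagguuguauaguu
hsa-miR-103a-3p: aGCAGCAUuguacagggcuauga
The 8mer match to a seed (the reverse complement of bases 2 to 8 followed by A) is GCACTTTA for miR-17-5p, CTACCTCA for let-7a-5p and ATGCTGCA for miR-103a-3p. Each was searched on the strand of the transcript, in the 3'UTR of the MANE Select transcript. The 3'UTRs of the silencing genes had 283 to 16755 bases, and 6 of 10 had at least 4000 bases, against a median of 1456 bases over all tested genes.

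The match to miR-103a-3p was in the 3'UTR of 5 of 10 silencing genes, beside 4.93% of the 11085 tested 3'UTRs and 13.9% of the 1666 with at least 4000 bases. DICER1 had 4 of these sites within 4270 bases. Only 2 of the 11085 tested 3'UTRs had 4 or more, DICER1 included. Since miR-103 was chosen as a miRNA known to target DICER1, its sites in DICER1 follow from that choice. The count of 5 genes includes DICER1. AGO2 had 2 sites and AGO1, AGO3 and AGO4 had 1 each. All 5 genes have 3'UTRs of at least 4000 bases, and those of AGO1, AGO2 and AGO3 have 10925, 11888 and 16755 bases. The share among 3'UTRs of at least 4000 bases is thus not matched to them in length. An excess beyond length cannot be read from it. The shorter match to bases 2 to 8 alone, with any next base, was in 7 of 10 genes, beside 15.002% of the tested 3'UTRs. For this shorter match the share among 3'UTRs of at least 4000 bases was not taken. The sites of DICER1 are printed with their surroundings because this gene had the largest change, with the match in capitals, on the minus strand of hg38:
DICER1 site 1, chr14:95089446-95089475: acacctaaaatATGCTGCAgattttataat
DICER1 site 2, chr14:95088845-95088874: tgcttcgtggaATGCTGCAtttatatgtaa
DICER1 site 3, chr14:95086370-95086399: tttaccatcacATGCTGCAgctgtttttta
DICER1 site 4, chr14:95086318-95086347: atacagtaatcATGCTGCAgaaatttgcag
The sites of the AGO genes on chromosome 1 (plus strand) read the same in capitals, with other flanks:
AGO1, chr1:35920389-35920418: ctgtaacggtaATGCTGCAgaactgcaacc
AGO3, chr1:36062786-36062815: agtaaccttgtATGCTGCAttatataataa
AGO4, chr1:35854757-35854786: tacaatgagtgATGCTGCAacttgcaaatg
The genes with this match included both those whose values were higher after knock-down in all 3 cell lines (DICER1, AGO2) and those with mixed directions (AGO1, AGO3, AGO4).

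The match to miR-17-5p was found in 1 silencing gene, TNRC6B, beside 5.90% of the tested 3'UTRs, and the match to let-7a-5p in 2, AGO2 and AGO3, beside 4.47%. Among the 3'UTRs of at least 4000 bases the shares were 15.9 and 12.9%. The shorter match to bases 2 to 8 alone was in 7 of 10 genes for miR-17-5p, with 8 sites in AGO3, beside 26.3% of the tested 3'UTRs, and in 4 of 10 for let-7a-5p, beside 11.5%. Its share was not taken among long 3'UTRs, where the 8mer shares were higher, so whether these counts exceed what length gives was not tested. The site of TNRC6B lies at base 12027 of its 3'UTR of 12567 bases, on the plus strand, and the let-7 site of AGO3 at base 13343 of 16755:
TNRC6B, miR-17-5p, chr22:40335257-40335286: acagaaactagGCACTTTAgaggtgcactt
AGO3, let-7a-5p, chr1:36069077-36069106: cctgtcctcacCTACCTCActaaattgttg
A match is a description of the letters, and binding was not measured.

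Of the other genes of the pathway, in 4 lists, none passed the test, while 7 had an unadjusted p under 0.05 in limma. These were 1 of 8 tested genes of nuclear processing, 2 of 15 of Argonaute loading, 3 of 23 of deadenylation and 1 of 12 of turnover. Of all tested genes, 18.3% had such a p. In nuclear processing and export of hairpins, 0 of 8 genes passed, with a median log2 change of −0.02. RAN, the GTPase that works with the hairpin exporter, had the largest change of these (−0.36, limma adjusted p = 0.233). Among partners of Argonaute loading, 0 of 15 passed (median −0.16), with the largest change in TSN, a subunit of the C3PO nuclease (−0.34, limma adjusted p = 0.200). In deadenylation and decapping, where the targets of TNRC6 recruitment lie, 0 of 23 passed (median −0.01). PAN2, the catalytic subunit of a deadenylase, was higher in all 3 cell lines, at 8.59 and 12.5 CPM in LN-229, 16.4 and 20.2 CPM in T98G, and 5.55 and 9.14 CPM in U251 (log2 change 0.47 ± 0.14, SE, limma adjusted p = 0.0752). In tailing and turnover of miRNAs, 0 of 12 tested genes passed (median −0.06), with the largest change in TCEB2, the Elongin B gene (−0.35, limma adjusted p = 0.220).

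The PIWI genes, the germline branch of the Argonaute family, were not tested. PIWIL1 and PIWIL3 were listed at 0 reads in all 6 libraries. PIWIL2 had 2 to 16 reads and PIWIL4 2 to 14.6 reads per library.

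Sensors of transfected RNA were the list with genes past the threshold, 2 of 15 tested, both lower after knock-down, beside 1.59% of all tested genes that were lower. The list was chosen with earlier results of these data known, so this count is a description and not a test of the list. IFIT1, an interferon-induced protein that binds foreign RNA ends, was at 0.77 and 0.568 CPM in LN-229, 13.05 and 8.19 CPM in T98G, and 82.6 and 43.4 CPM in U251 (siControl first). Its log2 change was −0.57 ± 0.15 (SE, limma adjusted p = 0.0423). DDX58, which encodes the RNA sensor RIG-I, was at 9.09 and 5.71 CPM in LN-229, 14.5 and 9.82 CPM in T98G, and 53.9 and 38.8 CPM in U251, with a log2 change of −0.52 ± 0.14 (SE, limma adjusted p = 0.0428). Both genes had lower values in each of the 3 cell lines while DICER1 and AGO2 had higher ones. For IFIT1 in LN-229, at under 1 CPM, the change was only −0.18, and no counting interval was taken. The fitted changes of IFIT1 and DDX58 were negative under all 10 alternatives. IFIT1 was past the threshold under 2 of them and DDX58 under 1 (limma adjusted p from 0.00844 to 0.999998 and from 0.0147 to 0.999998). The median change of the 15 sensors was −0.14, against −0.07 for all tested genes.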

How the data were processed

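RNA came from LN-229, T98G and U251 cells harvested at 72 h post-transfection (1 library for each line and siPOOL). The authors made libraries from 500 ng of total RNA (TruSeq v2) and sequenced 101 cycles. They trimmed 13 bases (5' end) and 1 base (3' end) in Partek, aligned to hg38 with STAR 2.4.1d and Bowtie 2 2.2.5, and quantified on Ensembl release 84 by Expectation-Maximization. As deposited, each value is a CPM plus 0.0001, and the listed genes sum to 42.9 to 67.2% of the CPM scale.

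Steps between the low values of a library gave the CPM of 1 read. As only 78.8 to 81.6% of values were whole reads (within 0.02 reads), no test for counts was used. Intervals are 95% and cover counting error only.

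The 14294 genes whose mean reached 1 CPM were fitted on the log2(CPM + 1) scale by limma-trend (limma 3.58.1 in R 4.3.3). Cell line was a block, tests were two-sided, and p-values were adjusted after Benjamini and Hochberg over all of these genes (threshold 0.05). Knock-down and control were paired by cell line: same-line libraries correlated with r of 0.948 to 0.967 in their deviations from the group means, and those of different lines with −0.505 to −0.467. The negative values follow from centring each small group on its own mean. Cell lines were compared with siPOOL as a term. For knock-down, p-values and SE rest on how changes varied between these cell lines, with limma sharing information on spread across genes. They thus do not measure the spread of a single gene between the lines. The SE was 0.16 for DICER1, with changes of 0.27, 0.27 and 1.00 in LN-229, T98G and U251. It was 0.14 for TNRC6B, with changes of −0.03, −0.06 and 0.12 in the same order. For comparisons of cell lines, p-values and SE rest on the same spread, since no line had a repeat library of either siPOOL. Spread between cultures of a line was not measured.

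Lengths, positions and 3'UTRs came from GENCODE v44 (hg38), to which 34600 symbols matched (1834 by an older symbol), and miRNA sequences from RefSeq. The members, gene lists and miRNAs were chosen with earlier results of these data known. The genes named are the 10 silencing genes, HOTAIRM1, the marker genes, of each list those past the threshold (at most 3) and the one with the largest change, and the 5 genes most similar to DICER1 and to AGO2. DICER1-AS1 and the PIWI genes were named in addition. The fit was tested on simulated data. Other steps used Python 3.11.15 (scipy 1.17.1, pandas 2.3.3, numpy 2.4.6) and figures matplotlib 3.10.9. The alternatives were no block, the paired t-statistic of each gene, another pseudocount, no filter, 3 other scalings, removal of the length trend, leaving out each cell line, and other lengths.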

Additional observations from a re-analysis of the deposited data

Results flagged for a closer look

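Changes of opposite sign between cell lines were seen for 7 of the 10 silencing genes, and for 4 of them the change was beyond counting error in both directions. With 1 library per cell line and condition, none of these differences was tested. AGO1 changed by 0.31 in U251 and −0.39 in T98G, a difference of 0.70 on the log2 scale. For AGO3 the changes were 0.26 (U251) and −0.13 (LN-229), 0.39 apart. For TARBP2 the change was −0.39 in U251 against 0.19 in LN-229, which differ by 0.57. TNRC6A had a change of 0.22 in U251 against −0.14 in T98G, 0.36 apart. Relative to the median change of all tested genes in the line, the signs were the same for 3 of these genes, with 0.34 and −0.20 for AGO1, 0.29 and −0.14 for AGO3, and 0.17 and −0.36 for TARBP2, whereas TNRC6A was then at 0.25 in U251 and 0.05 in T98G. In U251 with the listed genes scaled to a common total, TARBP2 changed by −0.15, AGO1 by 0.57 and AGO3 by 0.53.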

How the results depend on the processing

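With 1 library per cell line and condition, 3 cell lines limit what the test can show, and the number of genes called on knock-down depended on the setting: 286 as reported, 0 without the replicate block by cell line, 0 with an ordinary paired t-statistic, 683 with a pseudocount of 0.1 CPM, 0 without a filter, 41 with median centring, 25 with the listed genes scaled to a common total, 0 with upper quartile scaling, 50 with the length trend removed, and 0 to 270 when a cell line was left out (0 without T98G, 149 without U251). The higher calls were 59 of 286 as reported, 15 of 41 with median centring and 10 of 25 with the listed genes scaled to a common total. Of the silencing genes, 0 were called on knock-down in each setting except the pseudocount of 0.1 CPM, with 1 (DICER1). DICER1, AGO2, AGO4 and DROSHA had a positive log2 change on knock-down in all settings, DICER1 from 0.27 to 0.67 and AGO2 from 0.15 to 0.55. AGO1 reversed to 0.0281 with the listed genes scaled to a common total, and lay between −0.33 and 0.0180 when a cell line was left out. TARBP2 reversed to 0.00085 with the listed genes scaled to a common total and to 0.0195 with the length trend removed. Without U251 4 genes reversed, and leaving out 1 cell line gave −0.0953 to 0.0988 for AGO3, −0.0442 to 0.137 for TNRC6A, −0.0439 to 0.0432 for TNRC6B and −0.0412 to 0.123 for TNRC6C. It gave 0.105 to 0.201 for DROSHA, 0.00728 to 0.12 for AGO4 and −0.294 to −0.0071 for TARBP2.

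In the comparisons of cell lines without a filter, 4 silencing genes were called in T98G against LN-229 (7 as reported), 1 in U251 against LN-229 (3) and 2 in U251 against T98G (4). In U251 against LN-229, 5 were called with median centring, 5 with the listed genes scaled to a common total and 5 with upper quartile scaling. For T98G against LN-229, TNRC6C reversed to 0.0178 with median centring and 0.0363 with upper quartile scaling. For U251 against LN-229, TNRC6A reversed to −0.0374 (median centring), −0.27 (listed genes) and −0.16 (upper quartile), and AGO1 to −0.14 (listed genes) and −0.0388 (upper quartile). For U251 against T98G, DROSHA reversed to −0.0661, −0.25 and −0.21 and TARBP2 to −0.17, −0.34 and −0.29 in these 3 scalings, AGO2 to −0.0997 and −0.0643 and AGO4 to −0.0313 (AGO2 with the listed genes and upper quartile, AGO4 with the listed genes). None of the reversed values was past the threshold, and the cause of these shifts was not tested. The order of the silencing genes per kb kept 35 of 45 pairs with the union of exons and 30 with coding length.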
